A study of Mus musculus with 4 samples.

Results

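The genes described here are 9 members of the Notch pathway and of the proneural cascade it controls. The pathway genes are the receptors Notch1 and Notch2, the ligand Dll1, the effectors Hes1 and Hes5 and their relative Hes6. The others are the neurogenic transcription factors Neurog2, Eomes and Neurod1. All 9 are named here by their symbols. They were taken by symbol from the 27998 genes of the Illumina matrices, and 7 of the 9, all but Notch2 and Neurod1, also had isoform rows in the Nanopore matrices. The Nanopore counts of Notch2 and Neurod1 were not analysed here. Cells came from cortex, hippocampus and ventricular zone of an E18 (late embryonic) C57BL/6 mouse, pooled into 1 suspension. No transgene or treatment was named. The cells were captured in droplets of 1 emulsion (10x Genomics Chromium), which was split before reverse transcription into a 190 cell and a 951 cell replicate, and Illumina short-read and Nanopore long-read libraries were made from the cDNA of each. The libraries are thus technical replicates of 1 suspension, and every p-value below measures the spread between 2 aliquots of the same suspension and not the spread between animals.

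Notch is a receptor that is cut when a ligand such as Dll1 on a neighbouring cell binds it. The freed intracellular part enters the nucleus, joins the DNA-binding protein RBPJ and switches on Hes1 and Hes5, repressors that hold back proneural genes and so keep radial glia, the stem cells of the developing cortex, undifferentiated. Where Notch signalling is low, the proneural factor Neurog2 rises, switches on Dll1 and pushes the cell through the Eomes (Tbr2) positive intermediate progenitor stage towards Neurod1 positive young glutamatergic neurons. Hes6 is a relative of Hes1 that is known to counter it and to favour neurogenesis.

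Cells with at least 1400 detected Illumina genes were kept, which were 186 of 190 and 935 of 951 barcodes. They held 1809081 and 8295650 Illumina UMIs (unique molecular identifiers, each standing for 1 captured molecule), with medians of 8048.5 and 7551 per cell, and 993220 and 4889148 Nanopore UMIs that were assigned to an annotated isoform. Levels are given below as CPM, the Illumina UMIs of a gene per 1000000 UMIs of the same cells, and 2 values joined by "and" are those of the 190 and the 951 cell replicate in this order. Intervals are exact 95% intervals and cover counting error only. The cells were clustered on the Illumina counts without the 9 genes and without 59 further pathway genes, so that none of these took part in defining the classes compared. The classes were named from marker genes as radial glia-like (108 cells), cycling progenitor-like (116), intermediate progenitor-like (51), immature glutamatergic-like (147), mature glutamatergic-like (139), immature GABAergic-like (171), mature GABAergic-like (146) and Cajal-Retzius-like (17). The 2 remaining clusters, of 139 and 87 cells, were left unnamed and are called cluster 3 and cluster 7. In cluster 3 no class led the next by enough, and cluster 7 had 6 of 8 immature glutamatergic markers raised but none of them, and 1 mature glutamatergic marker, among its 10 leading genes. All 12 radial glia markers and all 10 cycling markers were raised in their class, while 4 of 6 intermediate progenitor markers were raised in theirs. Tac2, Mfap4 and Sstr2 were among the leading genes of the intermediate progenitor-like class, but so were the immature glutamatergic markers Unc5d and Rnd2. The mean log2 rise in this class was 1.473 for intermediate progenitor markers and 0.873 for immature glutamatergic markers, the next list. It thus also leaned towards young neurons in its markers.

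Several features of the cells touch the results. The replicates shared 12 cell barcodes among the kept cells. In 10 of these pairs both cells fell in the same class, whereas the largest class held only 16.7% and 15.0% of the cells of the replicates. Class matches were not counted in other pairs. The expression of the 12 pairs correlated with a median r of 0.677, against 0.639 in 500 other pairs. Whether a shared barcode marks the same cell in both replicates was not tested. If it does, the replicates are not independent for these cells. Results that change without the cells with shared barcodes are given both ways below. The radial glia-like class also held 3 cells with at least 3 UMIs of microglia markers (353 UMIs over the class), 4 of mural markers (135 UMIs) and 6 of oligodendrocyte precursor markers (90 UMIs), and the cycling class held 11 cells of the last kind (201 UMIs). Without the 14 radial glia-like and 11 cycling cells that carried markers of another type, each of the 15 class differences called below was called again in the same direction.

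The upstream sequences of Hes5 and Hes6 are shown first, because these had the most different patterns over the classes among the 3 Hes genes. Sequences are 250 bases before the annotated start, from RefSeq (GRCm38.p6), which held entries for 8 of the 9 genes, all but Hes1. Capitals mark matches on either strand to TGGGAA, the core bound by RBPJ, or to CACNAG, the N-box bound by Hes repressors. The Hes5 window (chr4:154960673-154960922, plus strand) held 2 RBPJ cores, at 226 and 82 bases from the start. At least 2 such cores stood in 2.77% and at least 1 in 21.59% of 32851 mouse promoters of this length. The Hes6 window (chr1:91413223-91413472, minus strand), at the start of the transcript Hes6-201, held no RBPJ core, 1 N-box at 237 bases and 1 E-box (CANNTG, the site of proneural factors, not in capitals) at 150 bases. An N-box stood in 36.67% and an E-box in 66.22% of all promoters. The Hes5 window also held 1 E-box, at 194 bases, and a second Hes6 window (chr1:91414039-91414288, minus strand, not printed) held 3 E-boxes and neither an RBPJ core nor an N-box. No other window of these 8 genes held an RBPJ core, and the matches are a description of letters and not of binding.
Hes5 upstream: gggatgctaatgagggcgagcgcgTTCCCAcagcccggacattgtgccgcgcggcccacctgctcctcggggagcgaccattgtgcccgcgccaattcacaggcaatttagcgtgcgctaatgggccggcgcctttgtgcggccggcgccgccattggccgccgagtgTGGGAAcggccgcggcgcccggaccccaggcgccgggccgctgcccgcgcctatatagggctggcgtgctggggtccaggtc
Hes6 upstream: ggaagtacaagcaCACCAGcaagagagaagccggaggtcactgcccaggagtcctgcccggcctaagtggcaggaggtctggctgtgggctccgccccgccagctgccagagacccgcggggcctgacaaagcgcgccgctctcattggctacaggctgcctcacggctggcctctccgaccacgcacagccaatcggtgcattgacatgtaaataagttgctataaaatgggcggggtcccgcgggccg

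The Nanopore reads showed that Hes6 and Eomes were present as several isoforms, and the stretches that tell these apart are printed here from the GRCm38 genome and Gencode vM21. Capitals are the bases that are kept in 1 isoform and absent from the other, with 12 flanking exon bases on each side in lower case. Hes6-202 keeps an intron of 238 bases (chr1:91412483-91412720, minus strand) and Hes6-203 another of 77 bases (chr1:91412980-91413056), both removed from the protein-coding Hes6-201. Eomes-201 carries 57 coding bases (chr9:118484274-118484330, plus strand), or 19 codons, that Eomes-202 lacks.
Hes6-202 kept intron: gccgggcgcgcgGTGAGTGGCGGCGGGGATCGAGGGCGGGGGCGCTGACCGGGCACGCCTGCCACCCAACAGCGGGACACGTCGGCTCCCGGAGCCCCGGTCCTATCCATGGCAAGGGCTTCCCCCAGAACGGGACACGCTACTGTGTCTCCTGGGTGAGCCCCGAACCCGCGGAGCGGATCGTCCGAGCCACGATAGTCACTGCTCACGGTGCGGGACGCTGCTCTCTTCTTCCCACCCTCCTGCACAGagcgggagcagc
Hes6-203 kept intron: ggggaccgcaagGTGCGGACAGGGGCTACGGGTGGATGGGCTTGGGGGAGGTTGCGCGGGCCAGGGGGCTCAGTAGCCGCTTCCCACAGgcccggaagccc
Eomes-201 extra bases: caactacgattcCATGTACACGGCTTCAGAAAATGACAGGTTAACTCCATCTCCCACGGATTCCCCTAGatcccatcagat

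The 9 genes fell into 3 patterns over the classes. Notch1, Notch2, Hes1 and Hes5 were concentrated in the radial glia-like class, Neurog2 and Eomes were spread over the 3 progenitor classes, and Neurod1 was high from the intermediate progenitor-like class through the glutamatergic neurons. Within the radial glia-like class, 33 cells held 76.3% of its Neurog2 and 76.5% of its Eomes UMIs. These cells were grouped with intermediate progenitor-like cells in a second clustering that included the 9 genes, described below. Hes6 was present in every class. Dll1, with 58 Illumina UMIs in 52 cells, was too sparse to be ordered. The detected cells ranged from 12 of 1121 for Notch2 to 739 (65.9%) for Hes6.

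Notch1 (chr2:26457903-26516663, minus strand), the main Notch receptor of cortical progenitors, had 262 UMIs in 145 cells. Its level was 138 and 108 CPM in the radial glia-like class, 38.6 and 54.7 in cycling progenitor-like cells and 11.1 and 15.2 in intermediate progenitor-like cells. The first 3 classes in this order did not overlap between replicates, whereas all the classes below them overlapped with a neighbour. The radial glia-like class held 61.1% of all Notch1 UMIs and the cycling class 25.2%. A Notch1 UMI was found in 59.3% of radial glia-like cells (49.4 to 68.6%), against 2.16% of mature glutamatergic-like cells, where little Notch1 would be looked for, at median depths of 9722.5 and 12206 UMIs per cell. In immature GABAergic-like cells Notch1 stood at 11.7 and 12.2 CPM (12 UMIs).

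Notch2 (chr3:98013527-98150361, plus strand), a second receptor, had 13 UMIs in all, and 12 of these were in the radial glia-like class (12.6 and 7.64 CPM). The cycling class had none in 116 cells, which allows up to 2.59% of cells with a UMI. With so few UMIs Notch2 did not pass the filter on low counts and was not tested. Dll1 (chr17:15367354-15376872, minus strand) did not pass it either. Its UMIs were 0 and 18 in the cycling class, 1 and 13 in the radial glia-like class and 0 and 3 in the intermediate progenitor-like class. The highest level was thus carried by the 951 cell replicate, and all classes overlapped with a neighbour in the order of Dll1 levels.

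Hes1 (chr16:30064384-30067796, plus strand) and Hes5 (chr4:154960923-154962371, plus strand) are the repressors that Notch switches on in radial glia. Hes1 stood at 113 and 147 CPM in the radial glia-like class and at 29.0 and 25.3 CPM in the cycling class, and 200 of its 245 UMIs (81.6%) were in the former. Hes5 stood at 453 and 341 CPM in the radial glia-like class and at 41.9 and 48.6 CPM in the cycling class, and the former held 509 of its 643 UMIs (79.2%). For both genes these classes did not overlap with each other or with the classes below, and the other 8 classes could not be ordered. Hes5 was found in 63.0% of radial glia-like cells (89.5% and 57.3%) and Hes1 in 50.9%, against 10.8% and 1.44% of mature glutamatergic-like cells. Single cells differed widely, with up to 32 UMIs of Hes5 and 18 of Hes1 in a radial glia-like cell. The median was 1 for each gene over the cells of all classes that had any, and not within the radial glia-like class.

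Hes6 (chr1:91411483-91414038, minus strand) had a flatter pattern than its relatives. It had 1837 UMIs, and its level ran from 128 CPM in the mature glutamatergic-like class to 314 in the cycling class among the classes with at least 5 cells per replicate. It was highest in cycling progenitor-like cells (277 and 326 CPM), followed by intermediate progenitor-like cells (178 and 243), which overlapped with radial glia-like cells (227 and 215). Immature glutamatergic-like cells (171 and 181) lay below the radial glia-like class, and the GABAergic-like classes stood at 140 and 148 (immature) and at 83.0 and 137 (mature). A Hes6 UMI was found in 45.9% of mature GABAergic-like cells and 75.9% of cycling cells.

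Neurog2 (chr3:127633135-127635631, plus strand), the proneural factor of the dorsal cortex, had 757 UMIs in 238 cells. It stood at 176 and 247 CPM in the radial glia-like class, 245 and 137 in the intermediate progenitor-like class and 80.5 and 154 in the cycling class, so that the intermediate class overlapped with each of the others, which did not overlap with each other. Immature glutamatergic-like cells had 41.3 and 58.5 CPM and mature ones 31.1 and 23.9 CPM. Only 3 UMIs were found in 171 immature GABAergic-like cells and 2 in 146 mature ones. The Cajal-Retzius-like class had 213 and 16.0 CPM, from 4 and 13 cells, and stood far apart between the replicates.

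Eomes (chr9:118478212-118486132, plus strand), the T-box factor that marks intermediate progenitors, had 519 UMIs in 128 cells. Its levels were 138 and 221 CPM in the radial glia-like class, 267 and 143 in the intermediate progenitor-like class and 61.2 and 90.2 in the cycling class. It stood at 5.90 and 20.3 CPM in immature glutamatergic-like cells and 6.23 and 2.74 in mature ones. The Cajal-Retzius-like class had 236 and 23.9 CPM, from 13 UMIs. It overlapped with the cycling class and stood far apart between the replicates. Eomes was thus not confined to the progenitor classes. An Eomes UMI was found in 52.9% of intermediate progenitor-like cells (38.5 to 67.1%), 40.7% of radial glia-like cells and 1.17% of immature GABAergic-like cells. The median depth of the last was 5566 against 7655 UMIs in the intermediate progenitor-like class. Neurog2 was found in 56.9% of intermediate progenitor-like and 1.75% of immature GABAergic-like cells. Neurod1 (chr2:79452521-79456751, minus strand), which acts later in the cascade, had 945 UMIs in 295 cells, at 345 and 301 CPM in the intermediate progenitor-like class, 230 and 196 in immature and 174 and 230 in mature glutamatergic-like cells. Radial glia-like cells had 21.0 and 45 CPM. It was found in 72.5% of intermediate progenitor-like cells. No Neurod1 UMI was found in 146 mature GABAergic-like cells, which allows up to 2.05% of cells with a UMI, and 3 were found in 171 immature ones. Neurod1 thus separated glutamatergic from GABAergic neurons by level, while cluster 7 (47.1 and 57.2 CPM) and cluster 3 (40.7 and 31.8) lay between them.

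**Figure D1:**
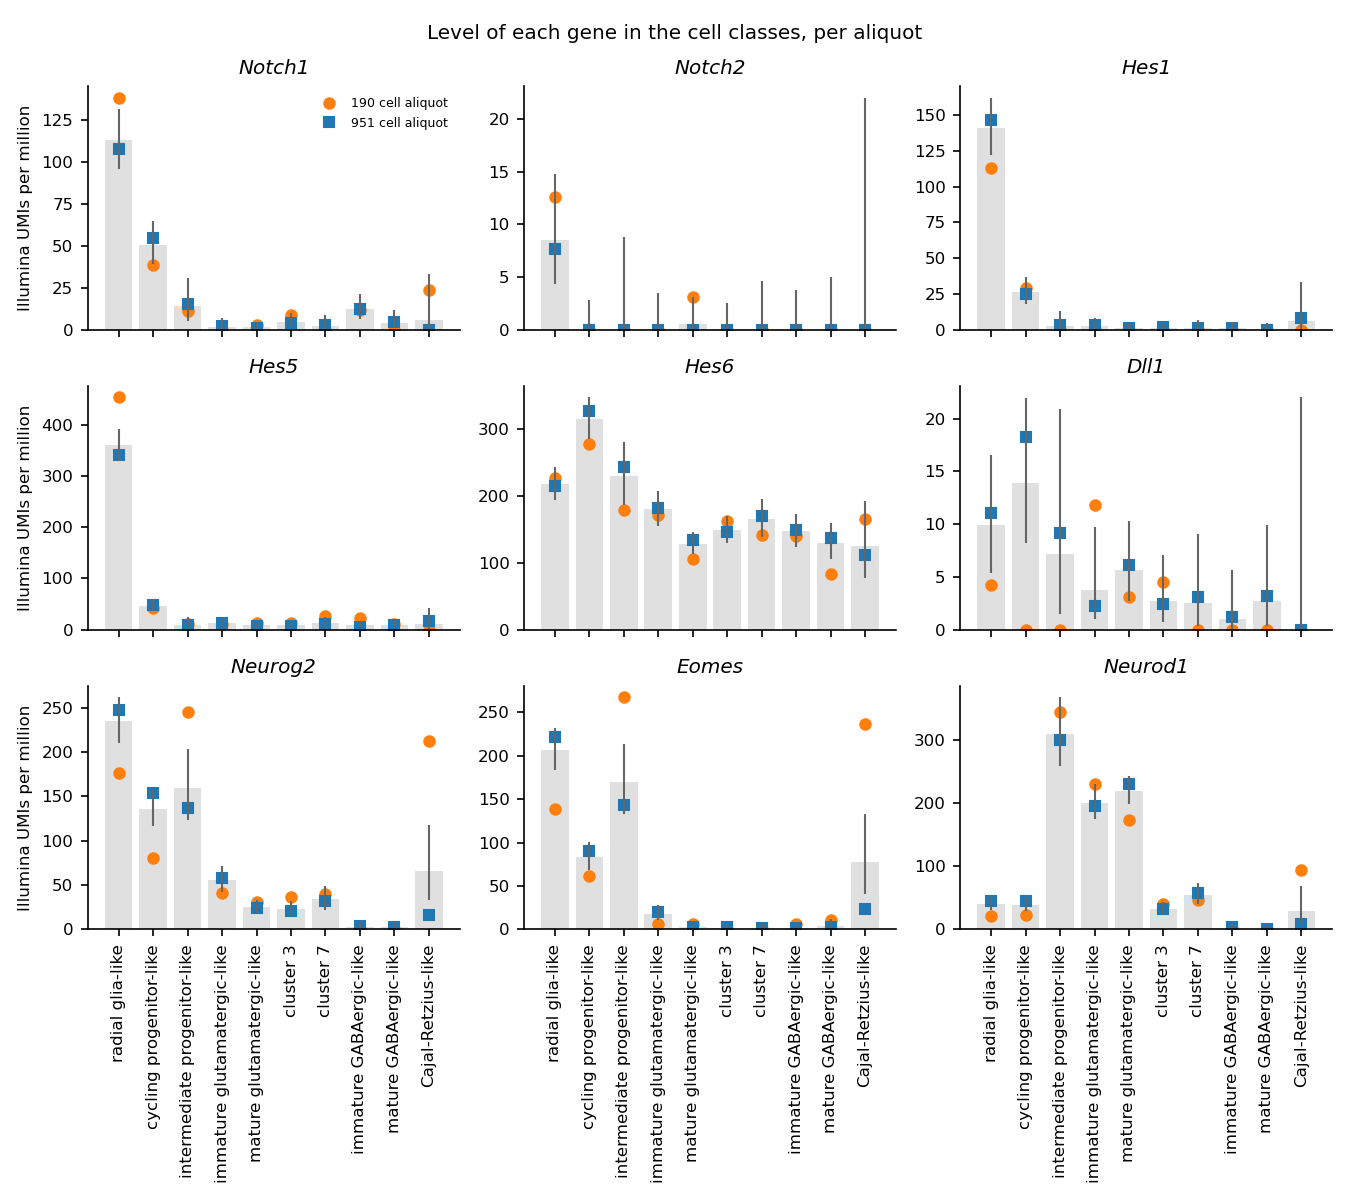
Level of each gene in Illumina CPM (y axis) in the 10 classes (x axis), where grey bars are both replicates pooled with exact 95% Poisson intervals, circles the 190 cell and squares the 951 cell replicate. Hes5 stood at 453 and 341 in the radial glia-like class and at no more than 48.6 in both replicates of the next class, the cycling one, Hes6 was present in all 10 classes, and Neurod1 was highest in the intermediate progenitor-like class at 345 and 301.

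Class differences were tested with edgeR's quasi-likelihood test on UMIs summed per class and replicate, over 6774 genes and with Benjamini-Hochberg adjustment, and a gene was called at an adjusted p under 0.05. Of the 9 genes, 7 passed the filter on low counts and were tested. Hes1 passed it only through the radial glia-like class (113 and 147 CPM), since it stood at 29.0 and 25.3 CPM in the next class, the cycling one. Its calls as lower against the radial glia-like class, counted below, thus rest on the class that let it into the test. For comparison, the share of all tested genes called is given beside each count. That background holds genes that defined the classes, while the 7 genes took no part in defining them.

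Cycling progenitor-like cells differed from radial glia-like cells by lower Notch effectors. Of the 7 tested genes 5 were lower and none was higher in cycling cells, where 4.74% of all genes were lower and 6.02% higher. Hes5 differed most (log2 fold change -3.03 ± 0.27 SE, adjusted p = 7.19e-11, edgeR), and Hes1 followed (-2.28 ± 0.41, adjusted p = 0.000134, edgeR). The receptor Notch1 was lower by less (-1.27 ± 0.36, adjusted p = 0.0170, edgeR), and so was Eomes (-1.22 ± 0.30, adjusted p = 0.00433, edgeR). Neurog2 was close to the threshold (-0.78 ± 0.25, adjusted p = 0.0417, edgeR), and was not called without the cells with shared barcodes (-0.78, adjusted p = 0.0524, edgeR). Hes6 went the other way (+0.50 ± 0.21, adjusted p = 0.124, edgeR) and was called only when the replicate was taken into the fit as a block (+0.54 ± 0.15, adjusted p = 0.00258, edgeR). With that block, 1497 genes were called where 729 were called without it. With DESeq2 only Hes5 was called, and with cells thinned to 2000 UMIs Hes1 was not. The signs of the Eomes and Neurog2 differences turn with the second clustering described below (+0.33 and +0.87). Neurod1 did not pass the test (-0.03 ± 0.33, adjusted p = 0.993, edgeR).

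Among 33 other pathway genes that could be tested, 3 were higher and 3 lower in cycling cells. The neurogenic factor Insm1 (+1.36) and the glycosyltransferase Mfng, which modifies Notch receptors (+1.00), were among the higher genes. Id3 (-3.10), Id4 (-1.89) and Id2 (-1.06), inhibitors that keep proneural factors from DNA, were lower. The receptor glycosylation, cleavage and nuclear complex lists, apart from Mfng, held no called gene, and the median log2 fold change of the 33 genes was -0.27, against 0.04 over all genes.

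Intermediate progenitor-like cells held little Hes1, Hes5 and Notch1 beside radial glia-like cells. Of the 7 tested genes 3 were lower and 1 was higher, where 10.1% of all genes were lower and 9.12% higher. Only 1 Hes1 UMI was found in the intermediate progenitor-like class against 200 in the radial glia-like class, a CPM ratio of 0.0169 (0.0004 to 0.0952 by counting), and Hes5 had 4 against 509 UMIs, a ratio of 0.0266 (0.0072 to 0.0684). Their fitted log2 fold changes were -5.73 ± 0.78 and -5.36 ± 0.45 (adjusted p = 4.53e-07 and 4.71e-12, edgeR). Notch1 was lower (-3.11 ± 0.54), with 6 against 160 UMIs (adjusted p = 3.14e-05, edgeR). Neurod1 was higher (+2.94 ± 0.29, adjusted p = 4.66e-10, edgeR), at 7.58 times the CPM of radial glia-like cells (5.52 to 10.5 by counting). Neurog2 (-0.44 ± 0.29, adjusted p = 0.333), Eomes (-0.11 ± 0.32, adjusted p = 0.886) and Hes6 (-0.06 ± 0.23, adjusted p = 0.983) did not pass the edgeR test. All 7 values depend on which cells are called radial glia-like. With the second clustering described below, the differences of Hes1, Hes5 and Notch1 were smaller and those of Neurog2, Eomes and Hes6 were above 0.

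In the same comparison 5 of the 33 pathway genes were higher and 6 lower. Dtx1, a regulator of Notch (+1.99), Mfng (+1.33) and Insm1 (+1.07) were the most raised. Id3 (-4.30) and Id4 (-4.01) were lower. Lfng is a glycosyltransferase that tunes the response of Notch to its ligands. It had 12 and 38 UMIs in the radial glia-like class and none in the intermediate progenitor-like class. The limit given for Hes1 can hold for the call of Lfng as lower, since cycling cells also had little of it (-2.46, not called). Id1 and Neurl1b were also lower, while Id2, of the same family as Id1, Id3 and Id4, was higher (+0.93), as was Tcf12 (+0.89). Rbpj itself, the DNA-binding partner of Notch, stood at 58.7 and 55.2 CPM in radial glia-like and 77.9 and 72.9 CPM in intermediate progenitor-like cells and was not called.

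From intermediate progenitor-like to immature glutamatergic-like cells, Eomes and Neurog2 were lower while Neurod1 did not pass the test. None of the 7 genes was higher and 2 were lower, where 0.915% of all genes were higher and 0.62% lower. Eomes differed most (-3.38 ± 0.43, adjusted p = 4.05e-06, edgeR), with 71 UMIs in 51 and 19 in 147 cells. Neurog2 followed (-1.64 ± 0.35, adjusted p = 0.00591, edgeR). Neurod1 differed by -0.61 ± 0.25 (adjusted p = 0.318, edgeR) and Hes6 by -0.31 (adjusted p = 0.731, edgeR). Notch1 (-2.79 ± 0.98, adjusted p = 0.177, edgeR) rested on 2 against 6 UMIs, and Hes1 and Hes5 had at most 13 UMIs in either class. With cluster 7 joined to the immature class, Neurod1 was called lower too (-1.16, adjusted p = 0.00527, edgeR). Of the 33 pathway genes, the Notch ligand-like gene Dner was higher (+2.53), and the stress and neurogenesis gene Gadd45g (-1.91) and Mfng (-1.80) were lower.

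Between mature and immature glutamatergic-like cells Neurod1 did not pass the test (+0.03 ± 0.23, adjusted p = 0.998, edgeR). Eomes was the 1 called gene of the 7, lower in mature cells, where 2.57% of all genes were lower and 3.35% higher. The Eomes difference (-2.25 ± 0.65, adjusted p = 0.0291, edgeR) rested on 6 against 19 UMIs. It was not called without the cells with shared barcodes (-2.20, adjusted p = 0.0507, edgeR), with DESeq2, with Nanopore counts, with thinned cells or with cluster 7 joined to the immature class (-1.52), and the value in the 190 cell replicate alone was +0.03, from 2 UMIs against 1. With the replicate block, Neurog2 (-1.09 ± 0.32, adjusted p = 0.0115, edgeR) and Hes6 (-0.47 ± 0.17, adjusted p = 0.0497, edgeR) were called lower as well, where the fit without it gave -1.05 (adjusted p = 0.0906, edgeR) and -0.51 (adjusted p = 0.210, edgeR). Hes1, Hes5 and Notch1 had at most 15 UMIs in either class and did not pass. The block also raised the genes called from 401 to 970. Of the 33 pathway genes, Neurl1b was higher (+1.61), and Mfng (-2.06), Tcf12 (-1.28) and Insm1 (-1.09) were lower.

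Immature GABAergic-like cells held few UMIs of the glutamatergic cascade. Of the 7 genes 3 were lower than in immature glutamatergic-like cells and none was higher, where 3.06% of all genes were lower and 2.1% higher. Neurod1, at 230 and 196 CPM in the glutamatergic class, had 3 UMIs against 213 (-5.94 ± 0.47, adjusted p = 1.62e-12, edgeR), a CPM ratio of 0.0151 (0.0031 to 0.0447 by counting). Neurog2 had 3 against 59 UMIs (-4.01 ± 0.62, adjusted p = 1.63e-05, edgeR). Eomes had 2 against 19 (-2.89 ± 0.85, adjusted p = 0.0331, edgeR) and was not called without the cells with shared barcodes (-2.86, adjusted p = 0.0532, edgeR), nor in the other settings named for Eomes above. Notch1 had 12 against 2 UMIs and did not pass (+2.62 ± 0.86, adjusted p = 0.0714, edgeR), but was called with cluster 7 joined (+2.47). Hes1 (1 against 3 UMIs) and Hes5 (9 against 13) did not pass. Hes6 differed by -0.22 ± 0.23 (adjusted p = 0.820, edgeR), with 140 and 148 against 171 and 181 CPM. Of the 33 pathway genes, Gadd45g was higher (+1.69), and Id2 (-3.42) and Insm1 (-2.28) were lower. With the block, 246 genes were called from intermediate progenitor-like to immature glutamatergic-like cells and 636 between the immature neurons, where the fits without it called 104 and 349.

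**Figure D2:**
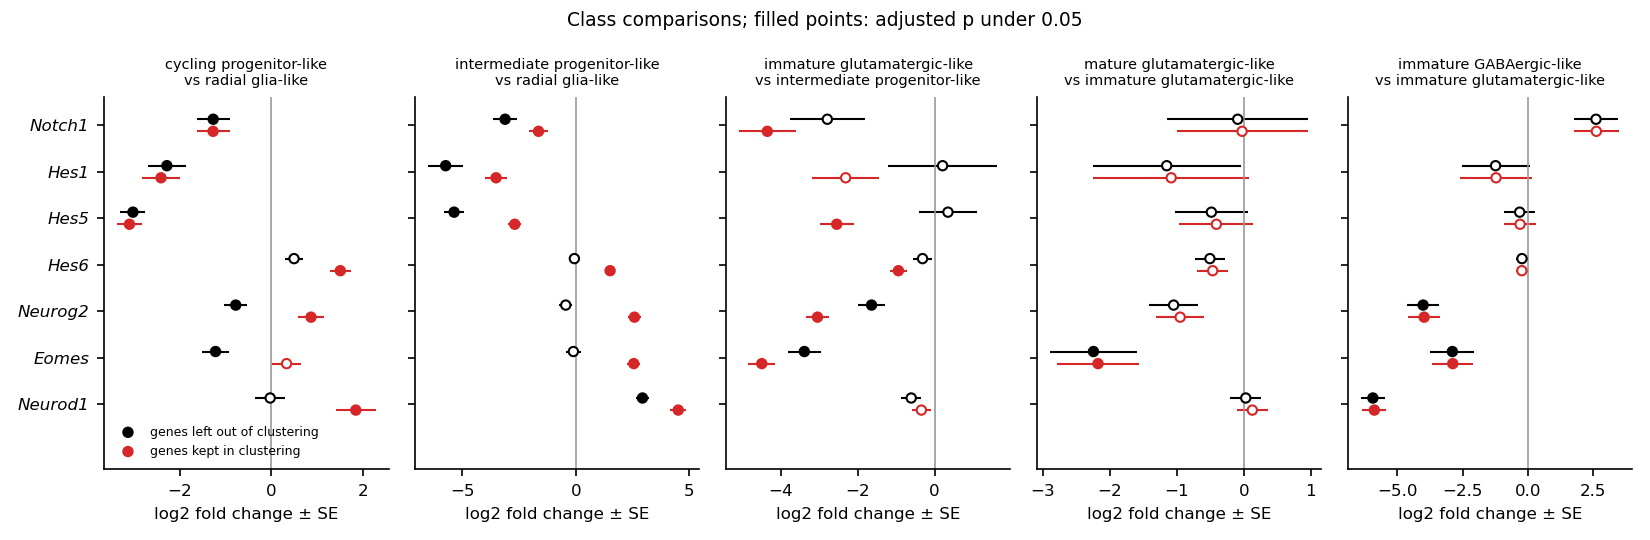
Log2 fold change ± SE (x axis) of the 7 tested genes (y axis) in the 5 class comparisons, one panel each, with filled points at an adjusted p under 0.05, black where the 9 genes and the pathway genes were left out of the clustering and red where they took part. Hes5 was lower in cycling than in radial glia-like cells in black (-3.03) as in red, while Neurog2 changed from -0.78 to +0.87. Red points, filled or not, are a description and no test, since the 9 genes helped to define those classes.

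The radial glia-like class came apart when the cells were clustered with the 9 genes and the pathway genes included. In that second clustering 72 of its 108 cells stayed radial glia-like, 33 were grouped with intermediate progenitor-like cells and 3 with cycling cells. Since the 9 genes took part in this split, their values over it are a description without a test. The 33 cells carried 254 of the 333 Neurog2 UMIs of the class (76.3%), 224 of 293 Eomes UMIs (76.5%) and 164 of 307 Hes6 UMIs (53.4%). The 72 cells carried 459 of 509 Hes5 UMIs (90.2%), 186 of 200 Hes1 UMIs (93.0%) and all 12 Notch2 UMIs. In CPM, Neurog2 stood at 73.1 in the 72 and 798 in the 33 cells, Eomes at 64.7 and 704, Hes5 at 430 and 138, and Notch1 at 125 and 69.1. The 33 cells thus had more Neurog2 and Eomes than the 51 intermediate progenitor-like cells (160 and 169 CPM) and less Neurod1 (148 against 310 CPM).

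Marker lists that hold none of the 9 genes were also compared over these cells. The summed level of 12 radial glia markers was 25757 CPM in the 72 cells, 6352 in the 33 and 1323 in the 51 intermediate progenitor-like cells. That of 6 intermediate progenitor markers was 226, 1477 and 1105 CPM, and that of 10 cycling markers 3340, 490 and 360 CPM, against 5958 in the cycling class. These markers took part in both clusterings. The 33 cells thus lay between the 72 and the 51 cells in radial glia and cycling markers and above both in intermediate progenitor markers. They came from both replicates, with 5 and 28 cells.

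**Figure D3:**
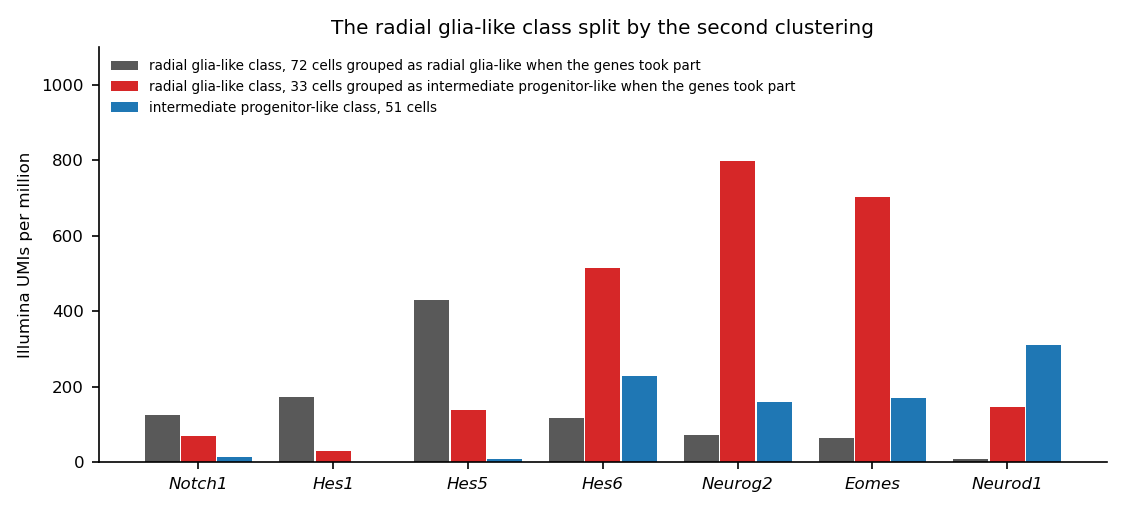
Level in Illumina CPM (y axis) of 7 genes (x axis) in the 72 and the 33 cells into which the second clustering split the radial glia-like class, and in the 51 cells of the intermediate progenitor-like class. Hes5 fell from 430 to 138 from the 72 to the 33 cells, whereas Neurog2 stood at 73.1 and 798 and Eomes at 64.7 and 704.

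With the second clustering, Neurog2 and Eomes took the opposite sign among progenitors, while Hes1 and Hes5 stayed highest in the radial glia-like class. Against the narrower radial glia-like class, cycling cells had a Neurog2 difference of +0.87, an Eomes difference of +0.33, a Neurod1 difference of +1.85 and a Hes6 difference of +1.51 on the log2 scale. Intermediate progenitor-like cells, then 84, had differences of +2.59 for Neurog2, +2.56 for Eomes, +4.52 for Neurod1 and +1.51 for Hes6. The differences of Hes1, Hes5 and Notch1 were -3.51, -2.69 and -1.64, and Hes5 stood at 65.2 CPM (48 UMIs) against 430 CPM in the 72 cells. From these cells to immature glutamatergic-like cells, Eomes (-4.49), Notch1 (-4.34), Neurog2 (-3.04), Hes5 (-2.54), Hes1 (-2.31) and Hes6 (-0.94) had values below 0. The values of Hes1 and Hes5 in that last comparison were +0.21 ± 1.42 and +0.35 ± 0.76 with the first clustering.

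Genes found together in the same cell were counted over the 275 cells of the 3 progenitor classes. Neurog2 and Eomes, the transcription factors that mark the way to intermediate progenitors, were often found together. Of the 96 cells with an Eomes UMI, 80 (83.3%, 74.4 to 90.2%) also had Neurog2, against 17.9% (12.6 to 24.3%) of the cells without Eomes. The share was 92.9% and 81.7% in the 2 replicates and 82.8% without the shared barcodes. Their log levels, scaled to 10000 UMIs per cell, correlated over these cells with r = 0.738, the highest of all pairs of the 9 genes. This is a value across cells of 2 libraries that vary in depth. The pairing was present in cycling cells (92.0% of 25 against 7.69%) and in radial glia-like cells (88.6% of 44 against 21.9%). In intermediate progenitor-like cells the shares were closer, at 66.7% with and 45.8% without Eomes.

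Hes1 and Hes5 formed a second pair. Of 98 cells with Hes5, 56 (57.1%, 46.7 to 67.1%) had Hes1, against 11.3% (7.04 to 16.9%) of the cells without, and 63.3% against 30.5% had Notch1. The Hes1 share was 42.3% in the 190 and 62.5% in the 951 cell replicate. These shares are pooled over the progenitor classes, and the radial glia-like class alone held 79.2% of all Hes5 and 81.6% of all Hes1 UMIs. The part of the classes in this pairing was not tested. Eomes and the Hes genes were found in the same cells. Hes5 was found in 34.4% of progenitor cells with Eomes and 36.3% of those without, and Hes1 in 26.0% and 28.5%. Within classes the shares went both ways. In radial glia-like cells Hes5 was found in 50.0% (34.6 to 65.4%) of cells with and 71.9% (59.2 to 82.4%) of cells without Eomes, and in cycling cells in 32.0% (14.9 to 53.5%) and 19.8% (12.2 to 29.4%). Beside Neurod1, Hes5 was at 26.6% (17.3 to 37.7%) with and 39.3% (32.4 to 46.5%) without a Neurod1 UMI, intervals that overlap. These shares were 50.0% and 48.6% in the 190 cell replicate and 20.6% and 37.1% in the 951 cell replicate. The Hes1 shares were 16.5% with and 32.1% without Neurod1. Both the Hes5 and the Hes1 shares beside Neurod1 are pooled over the progenitor classes. In the pooled replicates Hes5 stood at 360 CPM in radial glia-like and 9.55 in intermediate progenitor-like cells, and Neurod1 at 41.0 and 310. The part of the classes in these shares was not tested.

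Hes6 accompanied Eomes. It was present in 93.8% of cells with Eomes (86.9 to 97.7%) against 63.7% without, in 27 of 29 cells with Dll1 (93.1%) against 72% without, and in 75.5% of cells with Hes5 against 73.4% without. By the 3 markers Hes5, Eomes and Neurod1, 93 of the 275 cells had none, 58 had Hes5 alone, 26 Eomes alone and 21 Neurod1 alone. Hes5 and Eomes without Neurod1 were found in 19 cells, Eomes and Neurod1 without Hes5 in 37, Hes5 and Neurod1 without Eomes in 7, and all 3 genes in 14. Mean Neurog2 was 7.27 UMIs in the cells with Eomes alone and 0.241 in those with Hes5 alone, and mean Hes6 was 6.00 and 2.40. In the 19 cells with Hes5 and Eomes, Neurog2 (5.21), Hes6 (5.0) and Notch1 (2.58) were all present at several UMIs per cell. Deeper cells show more pairs of any kind. With each cell thinned to 2000 UMIs, Neurog2 was found in 73.6% of cells with and 13.1% of cells without Eomes.

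**Figure D4:**
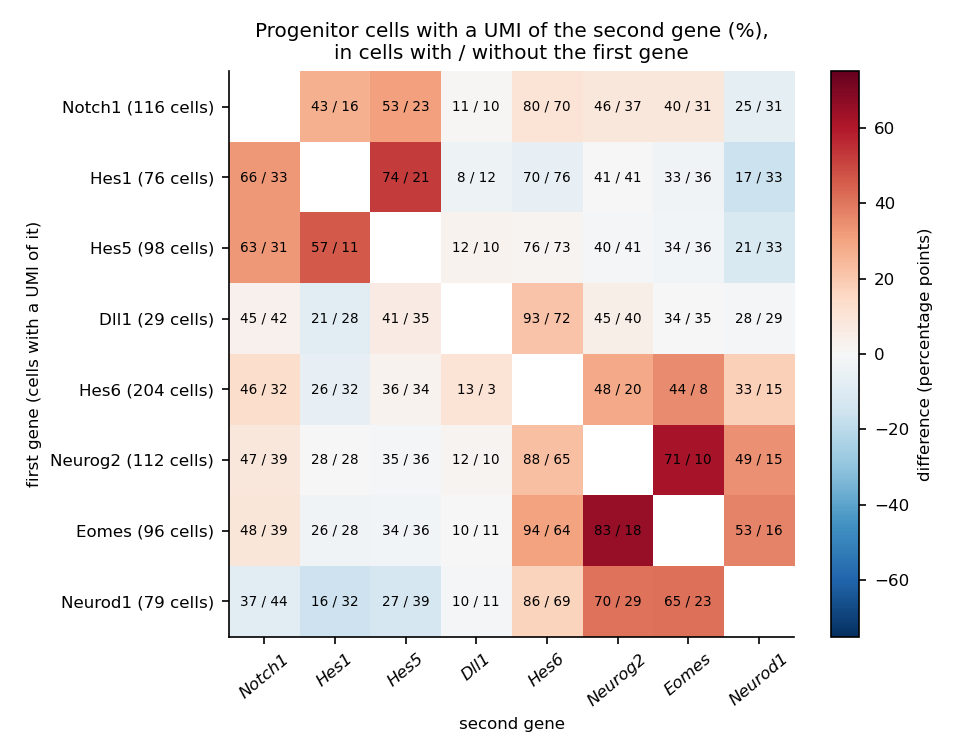
Percent of the 275 progenitor cells with a UMI of the second gene (columns), among cells with and without a UMI of the first gene (rows, with the number of cells that had it), coloured by the difference in percentage points. Neurog2 was found in 83.3% of cells with and 17.9% of cells without Eomes and Hes1 in 57.1% and 11.3% of those with and without Hes5, while Hes5 was found in 34.4% and 36.3% of those with and without Eomes.

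Nanopore recovered the genes unevenly. Over all genes, 58.2 isoform-assigned Nanopore UMIs were counted for each 100 Illumina UMIs, and the 7 genes ranged from 6.11 for Notch1 to 76.1 for Hes6. The values in between were 32.9 for Eomes, 33.5 for Hes1, 46.6 for Dll1, 61.0 for Neurog2 and 63.9 for Hes5. In the 2 replicates Notch1 had 7.69 and 5.71, Eomes 33 and 32.9 and Hes6 69.8 and 77.4 per 100. The main transcript is 9488 bases long for Notch1, 3560 for Eomes, 1468 for Hes1 and 3581 for Dll1. That of Neurog2 has 2227 bases, that of Hes5 1273 and that of Hes6 1335. Dll1 and Neurog2 are thus longer than Hes1 but had more Nanopore UMIs per 100. The part of length in the recovery was not tested. A Nanopore UMI was counted only when its exons matched an annotated isoform in full, and the part of this rule in the recovery of each gene was not tested.

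In the edgeR test of Nanopore against Illumina over 9855 genes, 1 of the 7 genes was higher and 2 were lower, where 20.2% of all genes were higher and 30.3% lower. Hes6 was higher (+0.50 ± 0.11, adjusted p = 0.0109, edgeR), and Notch1 (-3.11 ± 0.28, adjusted p = 0.000618, edgeR) and Eomes (-0.66 ± 0.13, adjusted p = 0.00885, edgeR) were lower. Notch1 stood at 28.7 and 25.3 CPM with Illumina and at 4.03 and 2.45 with Nanopore, from 4 and 12 UMIs. It thus passed the filter on low counts through Illumina, and its call as lower rests on the platform that let it into the test. Hes1 (-0.62 ± 0.22, adjusted p = 0.0607, edgeR) was called lower with the replicate block (-0.65, adjusted p = 0.000553, edgeR). The same held upwards for Hes5 (+0.24, adjusted p = 0.254 without and +0.28, adjusted p = 0.00350 with the block, edgeR) and Neurog2 (+0.20, adjusted p = 0.220 without and +0.21, adjusted p = 0.0186 with the block, edgeR). Dll1 differed by -0.11 ± 0.46. Of 44 other pathway genes tested, 8 were higher and 16 lower with Nanopore. The most raised were Dll3 (+0.83), Nrarp (+0.70) and Insm1 (+0.68), and the most lowered were the ubiquitin ligases Neurl1b (-6.91) and Mib1 (-5.36) and the coactivator Maml3 (-5.45). The limit given for Notch1 can hold for these 3 lowered genes too, since their differences were larger than that of Notch1.

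The isoform counts added what the 3′ Illumina reads could not show. Of 1398 Hes6 Nanopore UMIs, 78.3% (76.0 to 80.4%) were the coding Hes6-201, 19.8% (17.8 to 22%) Hes6-202 and 1.93% (1.28 to 2.80%) Hes6-203, whose kept introns are printed above. The share of Hes6-202 was 20.9% and 19.6% in the replicates. All 3 transcripts end together at 91411483, and Hes6-202 and Hes6-203 have no annotated coding sequence. Retained intron forms were not particular to a few cells: of 312 cells with at least 2 Hes6 Nanopore UMIs, 153 (49.0%) had more than 1 isoform.

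Hes6-202 was found in every class. Its share ran from 14.2% of 141 UMIs (8.89 to 21.1%) in immature glutamatergic-like cells to 25.9% of 170 UMIs (19.5 to 33.1%) in cluster 3, apart from 7 of 18 UMIs in Cajal-Retzius-like cells. In radial glia-like, cycling and intermediate progenitor-like cells it was 19.4%, 18.5% and 17.6%. Hes6 was the 1 member with enough UMIs for the test of isoform usage between classes (diffSpliceDGE of edgeR, 363 genes), and it was called in none of the 5 comparisons, in the order of the class comparisons above with adjusted p = 0.957, 0.947, 0.914, 0.872 and 0.744. The share of the 363 genes called was 3.31%, 8.26%, 0.275%, 3.03% and 0.826%. With 74 Hes6 UMIs in the intermediate progenitor-like class, whose interval runs from 9.70 to 28.2%, smaller shifts could not be seen at this depth.

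Eomes had 171 Nanopore UMIs, and its 3 annotated isoforms, all coding, were found. Eomes-201 took 64.3% (56.7 to 71.5%), Eomes-202, which lacks the 57 bases shown above, 13.5% (8.72 to 19.5%) and the shorter Eomes-203 22.2% (16.2 to 29.2%). The replicates gave 63.3% and 64.5% for Eomes-201 and 26.7% and 21.3% for Eomes-203. Eomes-201 made up 65.4% of 104 UMIs in radial glia-like, 71.9% of 32 in cycling and 58.3% of 24 in intermediate progenitor-like cells, with intervals that overlap. Of 44 cells with at least 2 Eomes Nanopore UMIs, 30 (68.2%) had more than 1 isoform.

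The other genes were read mainly as 1 isoform. Hes5-201 held 94.2% of 411 UMIs (91.4 to 96.2%), the rest being the processed transcript Hes5-202, at 2.44% and 6.69% in the replicates. Hes1-201 held 89.0% of 82 UMIs (80.2 to 94.9%), and the 9 UMIs of Hes1-203 and Hes1-204 came from the 951 cell replicate. Neurog2-201, the 1 annotated transcript of Neurog2, held all 462 UMIs. Notch1-201 held 15 of 16 and Dll1-201 26 of 27 UMIs, with 1 UMI each in a retained intron form. For Notch1 and Dll1 these counts are too few to bound the minor forms, whose intervals reach 30.2% and 19.0%.

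**Figure D5:**
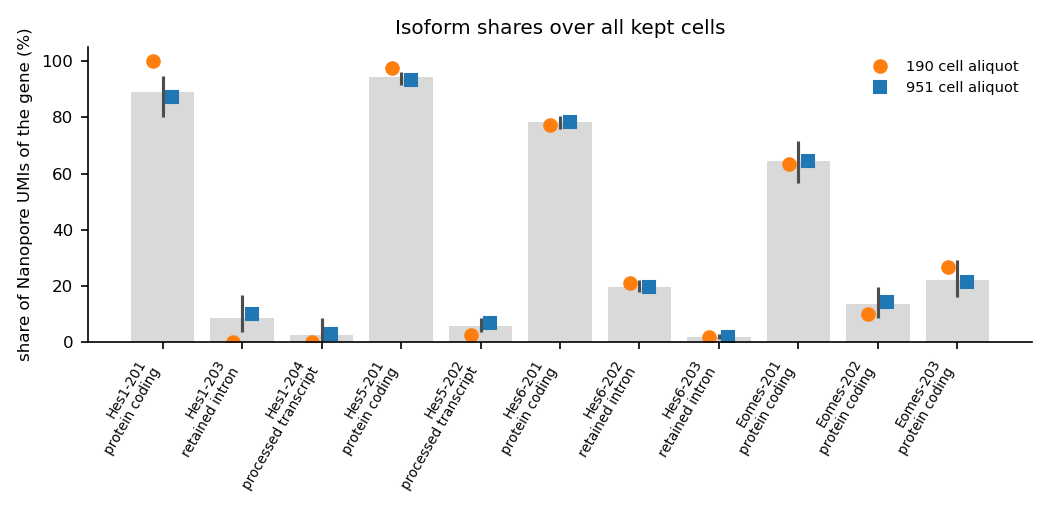
Share of the Nanopore UMIs of Hes1, Hes5, Hes6 and Eomes (y axis, percent) that each isoform held over all kept cells (x axis), where bars are both replicates pooled with exact 95% intervals, circles the 190 cell and squares the 951 cell replicate. The retained intron form Hes6-202 held 20.9% and 19.6% in the replicates, and Eomes-201 63.3% and 64.5%.

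Genes whose level followed that of a member most closely were looked up among 5862 genes, by the Pearson correlation of log2(CPM + 10) over the 20 profiles of class and replicate, which share classes and libraries and for which no p is given. Hes1 was closest to Slc9a3r1 (r = 0.985) and Hes5 to Aldoc (0.961), with Zfp36l1 among the 3 closest of both. Notch1 was closest to Rhoc (0.926). Hes6 was closest to the histone chaperone Nasp (0.882), followed by Tcf3, which encodes a partner of proneural factors, and the cell cycle kinase Cdk6. Neurog2 followed Lhx2 (0.861) and Eomes Eci2 (0.902), and Mdk was among the 3 closest of both. Neurod1 was closest to Lmo1 (0.882). Notch2 and Dll1, with 13 and 58 UMIs, reached 0.936 with 1500015O10Rik and 0.674 with Exosc1. Between members, r was 0.936 for Hes1 and Hes5, 0.836 for Neurog2 and Eomes and -0.17 for Hes5 and Neurod1.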

How the data were processed

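The deposited Illumina files hold raw counts of UMIs by gene and barcode, which the authors made with Cell Ranger 2.0 on mm10. The deposited Nanopore files hold raw UMI counts per Gencode isoform and barcode, for which the authors aligned reads with minimap2, used the Illumina data to assign barcodes and UMIs (Sicelore), removed chimeric reads, built a consensus per UMI and required the full exon structure to match. Both kinds of count were used as deposited, and isoforms were summed to Nanopore gene counts.

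Barcodes with fewer than 1400 Illumina genes (5% of 27998) were left out. Cells were clustered with Seurat 5.3.0 (10000 UMIs per cell, 2000 variable genes, 11 canonical correlation dimensions, resolution 0.8) without the 9 genes and 59 listed pathway genes, and again with them. A cluster was named where at least 3 markers of a class were detected in 10% of its cells and raised by 0.5 on the log2 scale (CPM plus 10) and the class led the next by 0.2, unless more of its 10 leading genes were markers of another class than of its own. Scrublet in scanpy 1.11.5 called 4 of 186 and 5 of 935 cells doublets, and these were kept. UMIs were summed per class and replicate (9 classes with at least 5 cells in each, 18 sums in 1 fit; Cajal-Retzius-like cells were left out) or per library. The test was that of edgeR 4.0.16 (R 4.3.3; TMM, filterByExpr, robust quasi-likelihood F test, Benjamini-Hochberg adjusted p under 0.05), with DESeq2 1.42.0 as an alternative. The SE of the edgeR values is the absolute log2 fold change divided by the square root of F. It was not taken from the fit and can disagree with the p beside it. Isoform usage was tested with diffSpliceDGE. The tests were checked on simulated data. Shares have exact binomial and levels exact Poisson 95% intervals, and a count of 0 is read as up to 3 counts. Precision is limited by medians of 7551 to 8048.5 Illumina and 4394 to 4487 Nanopore UMIs per cell. Python 3.11.15 with numpy 2.4.6, scipy 1.17.1, pandas 2.3.3 and matplotlib 3.10.9 was used for the rest. Loci are from Gencode vM21 (GRCm38), since the files hold no coordinates.

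The aliquot numbers pair the samples: the libraries of 1 number hold the same cells, whose deviations from the platform means correlated with 0.597 over 9855 genes, and for class sums within an aliquot this correlation was 0.134 to 0.358 (median 0.234, 36 class pairs). The fits above hold no block, and fits with the block are alternatives. All 9 members are described in every comparison, and of the listed pathway genes the counts per direction and up to 3 of the largest called changes in each direction are given, with the 3 genes most alike to each member, which had at least 200 Illumina UMIs. Some genes that this rule names are not reported here. The levels of Rbpj and the names of further called genes were added after their values were seen. The members and lists were chosen with earlier results of these data known.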

Additional observations from a re-analysis of the deposited data

How the results depend on the processing

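Of the 15 class calls on the 9 genes, 15 were called again with RLE size factors, with the replicate block, without doublets and without cells carrying markers of other types, 14 without a filter on low counts, 13 with cluster 7 joined to the immature glutamatergic-like class, 12 without the cells with shared barcodes and 9 with DESeq2. Leaving out shared barcodes or cells with other markers, and joining cluster 7, were chosen after seeing the data. With Nanopore counts 9 of the 11 calls that could be tested were called again, and with cells thinned to 2000 UMIs 10 of 13. The 3 platform calls were called again under every alternative except DESeq2, where 2 were. Counts of calls without a replicate could not be tested, since no residual degrees of freedom remain. Without replicate 1, the 190 cell aliquot, all 15 calls kept their direction and without replicate 2 14 did, Eomes in mature against immature glutamatergic-like cells being the exception (-1.25 without the first, +0.029 without the second). The cause of the changes below was not tested.

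The replicate block called 1497, 246, 970 and 636 genes where 729, 104, 401 and 349 had been called (cycling, immature glutamatergic-like, mature and GABAergic-like comparisons), with members called higher in the first going from 0 to 1, lower in mature cells from 1 to 3, and with Nanopore higher from 1 to 3 and lower from 2 to 3 (Hes1). Over all genes the block called 839 of 6774 higher in cycling and 441 of 6774 lower in mature cells. With Nanopore it called 3240 higher and 3732 lower of 9855. In isoform usage the block called 21, 3, 26 and 8 genes instead of 12, 1, 11 and 3, and without a filter on low counts the last 3 were 0, 2 and 0. The block changed no other call on a member. DESeq2 called 221, 682, 39, 133 and 174 genes in the 5 comparisons and 3071 between platforms instead of 4976, with members called lower going from 5 to 1 in cycling, from 1 to 0 in mature cells and from 2 to 1 with Nanopore. Over all genes it called 98 and 59 of 6774 lower in cycling and in mature cells, and 1905 of 9855 lower with Nanopore. Thinning called 155, 247, 31, 70 and 124 of 2132 genes, with 3 of 6 tested members lower in cycling and 0 in mature cells, where 60 and 28 of all genes were lower. Nanopore counts called 0 members higher in intermediate progenitor-like cells, where Neurod1 was not analysed, 0 lower in mature and 1 lower in GABAergic-like cells. Of all 3795 genes tested with them, 415, 143 and 132 were called in these 3 directions. Leaving out shared barcodes, or joining cluster 7, left 0 members lower in mature cells, where 160 of 6479 and 142 of 6637 genes were lower. Joining cluster 7 also called 196 genes from intermediate progenitor-like to immature glutamatergic-like cells, where Neurod1 was added to the members called lower (3 instead of 2), and 1 member (Notch1) higher in GABAergic-like cells. Of all 6637 genes, 79 were lower in the former and 183 higher in the latter. With the members in the clustering, where the 9 genes helped to define the classes and counts on them are a description and no test, 3 members were past the threshold as higher and 3 lower in cycling, 4 higher in intermediate progenitor-like and 5 lower in immature glutamatergic-like cells, where 457 genes were called. Of all 7990 genes, 528 were higher and 449 lower in cycling, 612 higher in intermediate progenitor-like and 213 lower in immature glutamatergic-like cells.

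Changes of sign were as follows. With the members in the clustering, cycling cells had +0.87 for Neurog2, +0.33 for Eomes and +1.85 for Neurod1, intermediate progenitor-like cells +1.51 for Hes6, +2.59 for Neurog2 and +2.56 for Eomes, and immature glutamatergic-like cells -2.31 for Hes1 and -2.54 for Hes5. Other reversals were of values near 0 or of few UMIs: Neurod1 in cycling cells without a filter (+0.022), Hes6 in intermediate progenitor-like cells with Nanopore (+0.021), Hes1 in immature glutamatergic-like cells with cluster 7 joined (-0.15), Hes1 (+0.061), Hes5 (+0.068) and Neurod1 (-0.13) in mature cells when thinned, and Hes5 in GABAergic-like cells when thinned (+0.95).

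Shares of cells with a UMI depend on depth. At 2000 UMIs per cell, Notch1, Hes1 and Hes5 were found in 16.7%, 25.0% and 38.0% of radial glia-like cells, Hes6 in 41.4% of cycling cells, and Neurog2, Eomes and Neurod1 in 33.3%, 23.5% and 37.3% of intermediate progenitor-like cells. At least 2 UMIs were found for Notch1 and Hes1 in 30.6% each, Hes6 in 54.3%, Eomes in 29.4% and Neurod1 in 60.8%. Hes5 positive cells with Hes1 were then 42.3%, and 27.5% when thinned, and Eomes positive cells with Neurog2 73.6% when thinned. Leaving out 1 replicate in turn gave ranges of 57.3 to 68.4% for Notch1, 47.4 to 51.7% for Hes1, 57.3 to 89.5% for Hes5, 72.8 to 87.5% for Hes6, 51.2 to 80.0% for Neurog2, 40 to 56.1% for Eomes, 70.7 to 80.0% for Neurod1, 42.3 to 62.5% for Hes5 cells with Hes1, 81.7 to 92.9% for Eomes cells with Neurog2 and 20.6 to 50.0% for Neurod1 cells with Hes5. For isoforms they were 77.3 to 78.4% (Hes6-201), 19.6 to 20.9% (Hes6-202), 63.3 to 64.5% (Eomes-201) and 21.3 to 26.7% (Eomes-203). Depth limits Notch2, Dll1 and the isoforms of Notch1 and Dll1, and no animal-to-animal spread was measured.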
